A study of Homo sapiens with 6 samples.

Results

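The 8 genes ANAPC13, ARMT1, BLOC1S2, DAZAP2, KCTD10, ARL15, VPS26C and MRFAP1 were chosen from 31142 genes because each library with mutant U2AF1 lay above each library with wild-type U2AF1. RNA had been sequenced from 6 samples labelled as SKM-1, a human cell line from a patient whose myelodysplastic syndrome had turned into leukaemia. In 3 samples the cells carried U2AF1 with the S34F substitution, a serine to phenylalanine change at residue 34 (S34F), and in 3 they were labelled as wild type (WT). The methods describe lentiviral, FLAG-tagged U2AF1 in stably selected cells, and all 6 samples were taken at 96 h. The methods also call the controls a vehicle control, and the prefix of their titles is the abbreviation for negative controls, so whether the WT cells carried a wild-type transgene could not be settled here. The endogenous gene was present in both groups, and nothing in the labels says that the replicates came from separate cultures, so p-values measure the spread between samples, which may be technical.

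U2AF1 is the small subunit of the factor that reads the AG at the end of an intron, and S34F is known to change which base before that AG it prefers. The 8 genes do not form 1 pathway. ANAPC13 is a small subunit of the anaphase-promoting complex (APC/C), the ubiquitin ligase that marks cyclins and securin for degradation, and KCTD10 is an adaptor that brings substrates to the CUL3 ubiquitin ligase. BLOC1S2 is shared by BLOC-1 and BORC, the complexes that build lysosome-related organelles and place lysosomes in the cell. VPS26C is a subunit of Retriever, which returns receptors from endosomes to the cell surface, and ARL15 is an Arf-like GTPase that binds the CNNM magnesium transporters. ARMT1 has been reported as a methyltransferase for acidic residues, DAZAP2 is a small proline-rich adaptor protein, and MRFAP1 binds the chromatin protein MORF4L1.

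The start regions of 3 of the genes are printed as the stretches that the values below bear on: ANAPC13 and KCTD10 because a gene on the opposite strand starts beside each of them, and MRFAP1 because it was the most abundant of the 8. Each runs from 250 bases before to 50 bases after a RefSeq start site on GRCh38.p14, and 7 of the 8 genes matched a RefSeq entry. The capitals mark a GC box (GGGCGG) and an E-box (CACGTG) in ANAPC13, GC boxes in KCTD10 and TGACG, the core of a cyclic AMP response element, in MRFAP1, each on either strand.

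The ANAPC13 window lies at chr3:134485974-134486273, minus strand:
ANAPC13: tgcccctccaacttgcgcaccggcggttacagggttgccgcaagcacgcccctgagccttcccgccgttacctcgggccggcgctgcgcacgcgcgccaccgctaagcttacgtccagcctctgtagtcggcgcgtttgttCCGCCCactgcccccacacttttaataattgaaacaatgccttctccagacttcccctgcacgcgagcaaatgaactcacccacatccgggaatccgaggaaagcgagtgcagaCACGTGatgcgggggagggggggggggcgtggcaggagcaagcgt
The KCTD10 window lies at chr12:109477251-109477550, minus strand, and holds the start of UBE3B on the plus strand at position 109477402:
KCTD10: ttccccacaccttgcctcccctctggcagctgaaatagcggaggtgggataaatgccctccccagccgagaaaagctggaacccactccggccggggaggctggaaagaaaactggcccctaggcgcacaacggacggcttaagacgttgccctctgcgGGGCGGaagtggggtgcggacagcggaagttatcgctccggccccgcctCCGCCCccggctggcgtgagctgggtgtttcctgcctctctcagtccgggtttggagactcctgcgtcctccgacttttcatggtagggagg
The MRFAP1 window lies at chr4:6640435-6640734, plus strand:
MRFAP1: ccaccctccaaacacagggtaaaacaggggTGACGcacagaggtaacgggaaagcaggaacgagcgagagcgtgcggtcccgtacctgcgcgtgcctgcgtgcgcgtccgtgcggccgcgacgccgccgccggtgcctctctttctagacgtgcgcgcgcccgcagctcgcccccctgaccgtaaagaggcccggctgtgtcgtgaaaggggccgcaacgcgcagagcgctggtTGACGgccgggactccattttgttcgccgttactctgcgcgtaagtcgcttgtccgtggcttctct

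The windows of the 7 genes held 62.0 to 66.3% G and C with a median of 63.7%, where the median over 27305 genes was 58.3%. These are more than the 10942 genes that passed the filter on level, so this background is not limited to expressed genes. They held 20 to 41 CpG, with a median of 23 against 14 over all genes. A GC box stood in 5 of the 7 windows and in 44.6% of all windows, and TGACG in 2 (DAZAP2 and MRFAP1) and in 25.01%. CCAAT stood in 2 (ARL15 and VPS26C) and in 35.7% of all windows, CCGGAA, the core of ETS sites, in 2 (BLOC1S2 and DAZAP2) and in 17.6%, and TATAAA in 1 (ARL15) and in 11.95%. CACGTG stood in the window of ANAPC13 and in 7.43% of all windows. The forkhead motif GTAAACA and the YY1 core AAGATGG were in none of the 7 and in 3.41% and 6.06% of all. Both strands were searched, for the RefSeq window listed first for each gene, and these letters are a description of the windows. The VPS26C window used lies beyond the end of the GENCODE gene. Its other window, chr21:37267285-37267584, has 69.0% G and C and 29 CpG, and with it the GC box stood in 6 of 7, CCGGAA in 3 and CACGTG in 2. No motif was in all 7 with either window.

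Levels were read as FPKM, fragments scaled to exon length and to library size, which are per length and so may be set side by side between genes. Depth recovered from the FPKM of single-exon genes longer than 300 bases was 20.5 to 26.1 M fragments per library. Over the full exon length this put the 8 genes at 143 (ARMT1) to 5620 (MRFAP1) fragments per library. At their lowest library it gives a counting error of 2.52 to 8.36%, which covers counting only. For ARL15, FPKM multiplied by length was whole at 950 bases, where its full exon length is 3797. Its fragments may therefore be fewer and its counting error larger. Of 12 erythroid markers 9 had a mean of at least 10 FPKM, with sums of 12132.9 to 13894 FPKM in the S34F and 11740 to 12827 FPKM in the WT libraries. Of 12 monocytic markers 9 were under 1 FPKM, among them CD14, MPO and CSF1R, and the sums of all 12 were 12.7 to 29.3 and 23.6 to 25.5 FPKM. LYZ was the 1 with a mean of at least 10 FPKM. It stood at 8.52, 8.82 and 23.2 FPKM in S34F and at 18.8, 17.0 and 17.6 FPKM in WT. CD33 and ITGAM, at means of 2.44 and 2.42 FPKM, were called lower in S34F at an unadjusted limma p under 0.05. Of all genes tested 1.57% were called lower, and 0 genes were called at an adjusted p under 0.05. SKM-1 is described as a monocytic line, and the part of this in the results was not tested. U2AF1 itself stood at 9.24, 9.48 and 9.18 FPKM in S34F and at 8.67, 8.70 and 7.65 FPKM in WT replicates 1, 2 and 3, and shares its sequence with the annotated copy U2AF1L5, so its level is uncertain.

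The fit was limma on log2(FPKM + 1) over the 10942 genes with a mean of at least 1 FPKM, and a gene was called at an unadjusted p under 0.05. It called 90 genes higher in S34F (0.823% of those tested) and 172 lower (1.57%), and with the replicate number as a block 174 higher (1.59%) and 269 lower (2.46%). At a Benjamini-Hochberg adjusted p under 0.05 limma called 0 genes with or without the block. All 3 S34F libraries lay above all 3 WT libraries for 400 genes (3.66% of those tested) and below them for 408. The 8 genes are among the 400 because they were chosen so, and nothing is read from their count. Below, their differences are given as a description, with the fold as the ratio of mean FPKM and the log2 fold change from limma with its standard error.

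ANAPC13 (ENSG00000129055, chr3:134477706-134486716, minus strand) stood at 13.1, 13.5 and 13.4 FPKM in S34F replicates 1, 2 and 3, and at 6.01, 7.49 and 7.46 FPKM in WT. Its S34F libraries differed from each other by less than those of any other of the 8 genes, with a coefficient of variation of 1.49%. The means were 13.4 ± 0.199 and 6.98 ± 0.843 FPKM (SD, n = 3), a ratio of 1.91 and a log2 fold change of 0.85 (SE 0.11). The lowest S34F library was 1.75 times the highest WT library.

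KCTD10 (ENSG00000110906, chr12:109448656-109477544, minus strand) stood at 4.69, 5.09 and 6.67 FPKM in S34F and at 2.39, 2.38 and 2.92 FPKM in WT. Replicate 3 was the highest of its group in both. The means were 5.48 ± 1.05 and 2.57 ± 0.307 FPKM, a ratio of 2.14 and a log2 fold change of 0.85 (SE 0.15), and the groups were 1.61-fold apart at their nearest libraries.

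BLOC1S2 (ENSG00000196072, chr10:100273280-100286712, minus strand) was at 5.75, 5.95 and 6.85 FPKM in S34F and at 3.54, 2.47 and 2.98 FPKM in WT. Relative to their mean the WT libraries spread more than the S34F libraries, and the groups did not meet. The means were 6.18 ± 0.587 and 2.999 ± 0.534 FPKM, a ratio of 2.06 and a log2 fold change of 0.85 (SE 0.13), with 1.62-fold between the nearest libraries.

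VPS26C (ENSG00000157538, chr21:37223420-37267919, minus strand) measured 5.66, 5.27 and 4.68 FPKM in S34F and 3.09, 3.21 and 3.30 FPKM in WT. Here replicate 3 was the lowest S34F library and the highest WT library, so that the pair numbered 3 was the closest, at a ratio of 1.42. The means were 5.20 ± 0.489 and 3.20 ± 0.106 FPKM, a ratio of 1.63 and a log2 fold change of 0.56 (SE 0.11), the smallest of the 8 on this scale.

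ARL15 (ENSG00000185305, chr5:53883945-54310582, minus strand) measured 6.32, 7.52 and 4.33 FPKM in S34F and 2.73, 2.16 and 1.70 FPKM in WT. Both groups were spread, and replicate 3 was the lowest of each. The means were 6.05 ± 1.61 and 2.20 ± 0.517 FPKM, a ratio of 2.76 and a log2 fold change of 1.13 (SE 0.21). The nearest libraries, S34F replicate 3 and WT replicate 1, were 1.58-fold apart.

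ARMT1 (ENSG00000146476, chr6:151452258-151470101, plus strand) was at 4.997, 4.74 and 6.26 FPKM in S34F and at 2.51, 1.95 and 2.18 FPKM in WT. Its nearest libraries were 1.89-fold apart, the widest separation of the 10942 genes tested. The means were 5.33 ± 0.818 and 2.21 ± 0.281 FPKM, a ratio of 2.41 and a log2 fold change of 0.98 (SE 0.13).

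DAZAP2 (ENSG00000183283, chr12:51238292-51271362, plus strand) stood at 17.8, 19.0 and 19.8 FPKM in S34F and at 12.8, 11.96 and 11.1 FPKM in WT. The means were 18.9 ± 1.01 and 11.96 ± 0.885 FPKM, a ratio of 1.58, the smallest ratio of the 8, and a log2 fold change of 0.62 (SE 0.10). The spread within each group was small beside this, and the nearest libraries were 1.39-fold apart.

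MRFAP1 (ENSG00000179010, chr4:6640091-6642745, plus strand) was uneven. It stood at 82.3, 27.9 and 85.5 FPKM in S34F and at 22.2, 21.5 and 23.7 FPKM in WT. S34F replicate 2 lay near the WT libraries, 1.18 times the highest of them, and the other two S34F libraries were far above. The means were 65.2 ± 32.4 and 22.4 ± 1.12 FPKM, a ratio of 2.91 and a log2 fold change of 1.34 (SE 0.41), and without S34F replicate 2 the log2 fold change was 1.86.

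MRFAP1 was the most abundant of the 8 over the 6 libraries, with a mean of 43.8 FPKM, followed by DAZAP2 at 15.4 and ANAPC13 at 10.2 FPKM. BLOC1S2 (4.59 FPKM), VPS26C (4.20), ARL15 (4.13), KCTD10 (4.03) and ARMT1 (3.77) followed within 1 FPKM of each other, less than the difference between the groups in any of these 5, and their order is not resolved. The median of all genes tested was 5.31 FPKM. In the S34F libraries the same 5 genes had means of 5.20 to 6.18 FPKM, and in WT of 2.20 to 3.20 FPKM.

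The separation at the nearest libraries ranked ARMT1 at 1, ANAPC13 at 3, BLOC1S2 at 5, KCTD10 at 6, ARL15 at 7, VPS26C at 8, DAZAP2 at 9 and MRFAP1 at 20 among the genes tested. Of the 8, MRFAP1 lay nearest to the edge of the rule, which is a ratio of 1, and many other genes lay between it and that edge. Just outside it was ERO1A, an oxidase of the endoplasmic reticulum, with 2.98, 2.88 and 2.72 FPKM in S34F and 2.59, 2.72 and 2.51 FPKM in WT. Of the 400 genes, 76 were also called higher, and 17 of these had a fold above 1.5 on the scale of FPKM + 1. On that scale 7 of the 8 genes are among the 17 and VPS26C, at a log2 fold change of 0.56, is not. MRPL30, a mitochondrial ribosomal protein, had the smallest p of the 17.

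**Figure D1:**
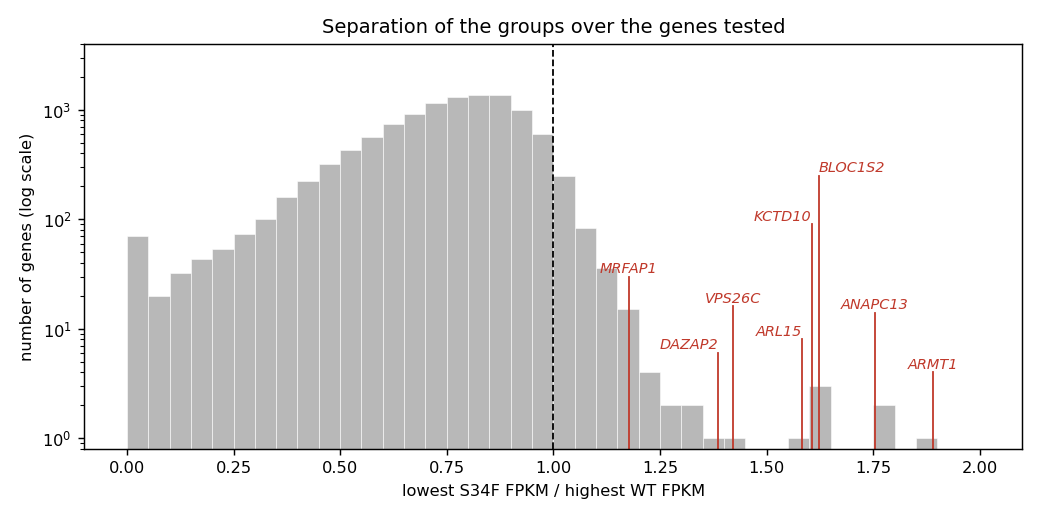
Number of genes tested (vertical axis, log scale) by the ratio of the lowest S34F to the highest WT library in FPKM (horizontal axis, bins of 0.05), with a dashed line at 1 and red lines at the 8 genes. ARMT1 is farthest to the right at 1.89, and MRFAP1, at 1.18, lies nearest to the line among the 8.

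The 8 genes did not vary together within the groups. Over their 28 pairs, the correlation of the deviations from the group means over the 6 libraries ran from -0.85 (KCTD10 and ARL15) to 0.88 (ARMT1 and BLOC1S2), with a median of -0.08, and 13 were positive. These points share libraries and depth and are 6 in number, and no test was made. S34F replicate 3 was the highest S34F library for 5 genes, replicate 2 for 2 (ANAPC13 and ARL15) and replicate 1 for 1 (VPS26C). As a measured fact beside this, S34F replicate 3 and WT replicate 3 stood apart from the other libraries across all genes, and same-numbered libraries deviated together with correlations of 0.212, 0.174 and 0.380. Unlike-numbered pairs of replicates 1 and 2 were near this, at 0.197 (S34F replicate 2 with WT replicate 1) and 0.134 (S34F replicate 1 with WT replicate 2). A link by number is thus resolved for replicate 3 only. Without both libraries numbered 3, the log2 fold changes of the 8 genes ran from 0.53 (DAZAP2) and 0.64 (VPS26C) to 1.10 (MRFAP1) and 1.20 (ARL15).

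Among all other genes tested, the one whose log2(FPKM + 1) followed each of the 8 most closely over the 6 libraries was SRXN1 for ANAPC13 (r = 0.980), G3BP2 for KCTD10 (0.985), KLHL7 for VPS26C (0.989), NPIPA2 for ARL15 (0.986) and SIKE1 for DAZAP2 (0.982). CHMP7, a protein of the ESCRT-III family, was the closest for both BLOC1S2 (0.996) and ARMT1 (0.991). Its log2 fold change was only 0.15, where those of BLOC1S2 and ARMT1 were 0.85 and 0.98. CNIH1, a cargo receptor for export from the endoplasmic reticulum, was the closest to MRFAP1 (0.995). Its levels were 11.6, 8.20 and 12.1 FPKM in S34F and 8.03, 7.93 and 8.03 FPKM in WT, so that S34F replicate 2 again lay with the WT libraries. DEGS1, a desaturase of ceramide synthesis, came after it (0.989), at 33.95, 21.7 and 39.7 FPKM in S34F and 20.0, 18.8 and 20.0 FPKM in WT. Each of these but DEGS1 was picked as the highest of 10934 correlations, so the values are descriptions. The correlations run over both groups, so they include the difference between the groups by which the 8 were chosen.

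The other genes of each complex or family showed the data around the 8. Of 108 listed genes 107 were in the table and 91 passed the filter of 1 FPKM. BLOC1S5 was the one called, higher in S34F (0.823% of all genes were called higher); 62 had a log2 fold change above 0 and 29 below. Their median log2 fold change was 0.04, where that of all genes was 0.01. Groups did not overlap, with S34F higher, for 6 of the 91: CDC23, FZR1, BLOC1S5, CUL3, RBX1 and MEAF6, where 3.66% of all genes did so. Without both libraries numbered 3, 6 of the 91 were called higher and 4 lower, where 8.29% and 8.66% of all genes were, and BLOC1S5 and CDC20 were among the 10.

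BLOC1S5, a subunit of BLOC-1 beside BLOC1S2, stood at 4.69, 3.77 and 3.70 FPKM in S34F and at 2.66, 3.19 and 2.70 FPKM in WT. It was higher in each S34F library than in any WT library, with a log2 fold change of 0.39 (SE 0.12, limma adjusted p = 0.9999). It was no longer called without S34F replicate 1 or without WT replicate 1, at log2 fold changes of 0.30 and 0.36. Of the other subunits, BLOC1S1 had means of 18.7 ± 2.51 and 18.9 ± 0.560 FPKM, SNAPIN of 12.5 ± 1.97 and 13.1 ± 1.01 FPKM, and KXD1, of BORC, of 24.5 ± 1.07 and 23.8 ± 1.596 FPKM in S34F and WT (n = 3), and none was called.

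Of the APC/C genes tested, 0 of 16 were called, 13 were above 0 and 3 below, and the median log2 fold change was 0.04. The catalytic subunits ANAPC2 and ANAPC11 had log2 fold changes of -0.01 (SE 0.10) and 0.06 (SE 0.13). CDC26 and ANAPC16, small subunits like ANAPC13, had 0.05 (SE 0.12) and 0.01 (SE 0.15). ANAPC16 was at 20.0, 21.2 and 28.7 FPKM in S34F and at 22.6, 21.9 and 24.1 FPKM in WT, and these overlap.

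Of the genes around CUL3, 0 of 9 were called and 8 were above 0, with a median log2 fold change of 0.13, the highest of the lists. CUL3, the scaffold that KCTD10 binds, stood at 1.57, 1.68 and 1.62 FPKM in S34F and at 1.51, 1.46 and 1.19 FPKM in WT (log2 fold change 0.14, SE 0.10). KCTD13 and TNFAIP1, the closest relatives of KCTD10, both had log2 fold changes of 0.07 (SE 0.17 and 0.13). RHOB, a GTPase that the ligase is known to act on, had 0.18 (SE 0.14).

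Of the Retriever, CCC and retromer genes, 0 of 19 were called, 8 were above 0 and 11 below. VPS35L and VPS29, which form Retriever with VPS26C, had log2 fold changes of -0.01 (SE 0.10) and 0.03 (SE 0.12). VPS35L stood at 3.92, 3.69 and 3.49 FPKM in S34F and at 3.71, 3.94 and 3.54 FPKM in WT, close to the level of VPS26C in WT. VPS26A, the retromer counterpart of VPS26C, had -0.21 (SE 0.22), with S34F replicate 2 at 4.93 FPKM and the other 5 libraries at 8.43 to 9.90 FPKM. Of the ARL GTPases and CNNM transporters, 0 of 12 were called. CNNM3 had 0.07 (SE 0.11), and TRPM7, a magnesium channel, 0.04 (SE 0.14).

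Of the MRG and NuA4 genes, 0 of 14 were called, 12 were above 0 and 2 below, with a median log2 fold change of 0.09. MORF4L1, to which MRFAP1 binds, stood at 20.8, 22.1 and 21.6 FPKM in S34F and at 21.6, 22.3 and 20.6 FPKM in WT. MRFAP1L1, the paralog of MRFAP1, stood at 23.4, 24.2 and 34.8 FPKM in S34F and at 23.5, 25.3 and 24.9 FPKM in WT, and S34F replicate 3 alone was above WT. Neither showed the split of MRFAP1, with S34F replicate 2 beside WT. Of the carboxyl methyltransferases and PCNA, a protein that ARMT1 has been reported to modify, 0 of 6 were called. In this list 3 were above 0 and 3 below. PCNA had a log2 fold change of 0.12 (SE 0.18) and PCMT1 one of -0.19 (SE 0.12). PCMT1 stood at 39.4, 49.7 and 50.1 FPKM in S34F and at 50.6, 53.5 and 54.5 FPKM in WT. Its S34F libraries thus all lay below its WT libraries, as for 408 of the genes tested. Of the DAZAP2 partners, 0 of 4 were called, with HIPK2 at 0.03 (SE 0.18) and EIF4G1 at -0.03 (SE 0.10).

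The genes beside the 8 on the chromosome were taken as up to 2 tested on each side and all that overlap. Untested genes on the sides were passed over, so the distance reached 1776 kb (MSX1, from MRFAP1). These genes were 43, of which 33 were tested. Of these, 0 were called higher (0.823% of all genes were) and 2 lower (1.57% of all genes were), and the median log2 fold change was 0.04. ACVRL1, a receptor of the TGF-beta family, 636 kb from DAZAP2, stood at 0.657, 0.823 and 0.936 FPKM in S34F and 1.48, 1.31 and 1.35 FPKM in WT (log2 fold change -0.40, SE 0.11, limma adjusted p = 0.9999). It was called in each of the 13 alternatives run for it, which reuse the same libraries. Its means were 0.806 FPKM in S34F and 1.38 FPKM in WT, so it passed the filter of 1 FPKM only through WT. AL133352, 219 kb from BLOC1S2, stood at 2.41, 2.32 and 0.813 FPKM in S34F and 2.53, 3.94 and 6.61 FPKM in WT (log2 fold change -0.90, SE 0.35, limma adjusted p = 0.9999), and it was not called with the replicate block, nor without S34F replicate 3 (-0.60), WT replicate 2 (-0.92) or WT replicate 3 (-0.61), nor with no filter (-0.90), nor without both libraries numbered 3 (-0.31). With the block DSCR4-IT1, 739 kb from VPS26C, was called lower, and it is listed at 0 in S34F replicate 3. Its means were 0.795 FPKM in S34F and 1.51 FPKM in WT, so it too passed the filter of 1 FPKM only through WT.

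A gene on the opposite strand starts within 1000 bases of 4 of the 8 genes, where 31.9% of 9119 protein-coding genes tested have such a gene. Distances are between GENCODE starts, which differ from the RefSeq starts used for the printed ANAPC13 and KCTD10 windows. RMND1, a mitochondrial protein, starts 77 bases from ARMT1 and stood at 3.28, 3.38 and 4.89 FPKM in S34F and at 3.04, 3.61 and 3.54 FPKM in WT (log2 fold change 0.13, SE 0.15, not called). UBE3B, a ubiquitin ligase, starts 142 bases from KCTD10, inside the KCTD10 window printed above, and stood at 3.03, 2.84 and 3.81 FPKM in S34F and at 2.69, 3.10 and 2.80 FPKM in WT (log2 fold change 0.12, SE 0.12, not called). In both pairs the groups overlapped for the partner, and S34F replicate 3 was its highest library. CEP63, a centrosome protein that starts 995 bases from ANAPC13 and overlaps it, had a mean of 0.372 FPKM, and AP001412, an antisense RNA that starts 135 bases from VPS26C and overlaps it, had 0.975 FPKM, both under the filter. The start of CEP63 lies outside the ANAPC13 window printed above. SMAGP overlaps DAZAP2 on the other strand and had a mean of 0.985 FPKM. Whether counting used strand is not given in the sources used here, so reads from overlapping genes on opposite strands may not be told apart.

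The 8 genes shared little that the choice did not use. Their exon lengths ran from 2359 to 9865 bases with a median of 3370, where the median of all genes tested was 4117.5, and their genomic spans from 2.65 kb (MRFAP1) to 427 kb (ARL15). They had a median of 6.5 annotated transcripts, against 6 over all genes. In the annotation deposited with the table, protein ubiquitination was shared by ANAPC13 and KCTD10 and is carried by 4.53% of the annotated genes tested, and nucleus was shared by 5 of the 8 and is carried by 45.2%.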

How the data were processed

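RNA levels of 6 samples came from 1 table in which the authors deposited FPKM per gene and library; although it is titled as counts, 0% of its non-zero values were whole. StringTie and edgeR are listed in the submitters' processing notes, and aligner, build and strand setting are not given in the sources used here. FPKM multiplied by GENCODE 29 exon length was whole, in millionths within 0.02, for 60.7% of 10821 genes and 4 of the 8, so values rest on transcript estimates and isoform shifts can move a gene's FPKM. The authors' fold changes and p-values were not used.

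Groups came from the sample titles. limma (3.58.1, R 4.3.3; trend) was fitted to log2(FPKM + 1), which understates changes of low genes, for the 10942 genes averaging at least 1 FPKM, with no replicate block, and was tested on simulated data. Same-numbered samples deviated together (correlations over 0.1 in all 3 pairs), so the block is given where it changes a call. Replicates 1 and 2 with unlike numbers also had correlations over 0.1, so only replicate 3 was told apart by its number. With 3 against 3 samples a permutation test cannot go below p = 0.1. Alternatives were pseudocounts, filters, scalings, the block, no trend and libraries left out.

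The members, gene lists and rule for named genes were chosen with earlier results of these data known. The rule named the 8 genes, called or closest partners, neighbours and the most correlated gene of each; ERO1A, MRPL30, DEGS1 and the partners without overlap or called without the libraries numbered 3 were named after their values were seen. Some genes of the lists are counted but not reported by name here. Annotation was GENCODE 29, promoters RefSeq (GRCh38.p14).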

Additional observations from a re-analysis of the deposited data

How the results depend on the processing

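The log2 fold changes of the 8 genes were above 0 in all 80 values under the alternatives run, and 76 moved by less than the spread between replicates. The choice of the genes fixes this sign where libraries were left out or the pseudocount changed, so nothing is read from it. With a pseudocount of 0.1 ARMT1 came to 1.23, BLOC1S2 to 1.03, KCTD10 to 1.06 and VPS26C to 0.68. Leaving out 1 library gave 0.76 to 0.90 for ANAPC13, 0.98 to 1.32 for ARL15 and 1.07 to 1.86 for MRFAP1.

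Genes called numbered 262, and 904 with no filter, 113 with a filter of 5 FPKM, 443 with the replicate block and 1847 without both libraries numbered 3, with 165 (without WT replicate 1) to 1159 (without S34F replicate 3) when 1 library was left out. The share called higher was 34.4%, and 50.2% without S34F replicate 3. Genes with all S34F above all WT libraries numbered 400, and 892 with no filter, 194 with a filter of 5 FPKM and 2726 without both libraries numbered 3, with 724 (without WT replicate 1) to 2008 (without S34F replicate 3) when 1 was left out. Partner genes called numbered 1, and 2 with no filter, 0 with a filter of 5 FPKM, 2 each with median-ratio scaling, quantile normalization and the replicate block, and 10 without both libraries numbered 3, with 0 (without S34F replicate 1 or WT replicate 1) to 8 (without S34F replicate 3) when 1 was left out, and 4 without WT replicate 3. Neighbours called numbered 2, and 1 with no filter, 0 with a filter of 5 FPKM and 5 without both libraries numbered 3, with 1 (without WT replicate 2 or 3) to 3 (without S34F replicate 3). The filter and fewer samples change what is tested by construction; for the other settings the cause was not tested. At full exon length, depth limits the 8 genes at a counting error of 2.52 to 8.36% in their lowest library, where the coefficient of variation between S34F replicates was 1.49 to 49.7%. The counting error of ARL15 may be larger, as its FPKM may rest on a shorter length.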
